A study of Homo sapiens with 12 samples.

Results

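Capan-1, a human pancreatic ductal adenocarcinoma (PDAC) cell line, was compared here with and without the hairpin sh1319 against Focal Adhesion Kinase (FAK). The comparison uses 4 of the 12 arrays in the series, 2 of Capan-1 cells with sh1319 and 2 of Capan-1 cells with the scrambled control hairpin (shCtrl). The Capan-1 labels spell the FAK hairpin shFAK1319, and it was read as the sh1319 of the MIA PaCa-2 labels. Both groups carried a doxycycline-inducible lentiviral construct, grew in puromycin at 1.5 ug/ml and received doxycycline at 50 ng/ml for 96 hours, so that control cells also saw both drugs and an induced hairpin. No group without a hairpin or without doxycycline was used here. The other groups that appear below are Capan-1 with sh1209, a different FAK hairpin, which shares the shCtrl arrays with sh1319, and MIA PaCa-2, another PDAC cell line, grown in puromycin at 3.5 ug/ml with sh1319 or shCtrl, which shares no array with the Capan-1 comparison. Each group has 2 arrays, and the sources used here do not say whether these came from separate cultures, so p-values measure the spread between these arrays, which may be technical.

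Total RNA (500 ng) was hybridised to Illumina HumanHT-12 v4 arrays, on which each probe has an intensity and a detection p-value, the chance that a probe without a target is as bright. Probes with a detection p under 0.05 in both arrays of at least one of the groups were tested, which left 17739 of the 47228 probes other than spike-in controls. At the edge of that rule a probe of ALDOA, with a p of 0.04935 in the better group, was in, and a probe of ALDH3B2, at 0.05065, was out. Of the probes tested, 14882 were detected in both arrays of both groups. Another 1284 were detected in both arrays of shCtrl alone and 1573 in both arrays of sh1319 alone, where 1 array of the other group may still detect the probe. The shCtrl arrays detected 18441 and 18585 probes and the sh1319 arrays 17898 and 19814, at median intensities of 88.7 to 97 over the 4 arrays. The number of arrays limits the precision. Across probes, which are not independent replicates, the arrays of a group correlated at 0.994, and arrays of different groups at 0.978 to 0.979. Levels below are normalized log2 intensities, and a change is the difference of the group means on that scale, where 1 stands for a doubling of intensity and dim probes are understated. All 10 ductal epithelium markers examined, including KRT19 and EPCAM, were detected in both groups, with summed intensities of 27344 to 28095 in shCtrl and 28862 to 30923 in sh1319. Among them CEACAM6 changed by 1.35, while the median change of the 15 marker probes was -0.15. No fibroblast marker of 8 and no endothelial marker of 4 was detected in both shCtrl arrays, 1 of each was in the sh1319 arrays, and of the immune list LYZ alone was detected in both arrays of a group. PTPRC was detected in none of the 4 arrays, and CD14 in 1 sh1319 array at one of its probes.

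FAK is a cytoplasmic tyrosine kinase that gathers at focal adhesions, the sites where integrins hold the extracellular matrix (ECM). When integrins bind matrix, FAK phosphorylates itself and recruits SRC family kinases, and the pair then phosphorylate adaptors such as paxillin and p130Cas, which feed ERK, PI3K and actin signaling. In PDAC, a tumor rich in type I collagen and other matrix, FAK has been studied for its role in growth, migration, survival and cancer stem cells (CSCs). The comparison asks how the transcriptome of a PDAC cell line differs once FAK expression is knocked down.

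FAK itself was lower with sh1319. PTK2, which encodes it, has 2 probes that passed the filter. The brighter one, 450253, stood at 10.35 and 10.17 in the shCtrl arrays and at 8.48 and 8.49 in the sh1319 arrays. The groups did not overlap, and the sh1319 replicates lay closer together than those of shCtrl. The change of -1.78 ± 0.11 (SE) left 29.2% of the control signal (limma, adjusted p = 3.95e-06). In MIA PaCa-2 sh1319 changed this probe by -2.48, and in Capan-1 sh1209 changed it by -0.61. The sh1319 level was below that with sh1209 (difference -1.16, limma, adjusted p = 4.11e-05), and the fall was smaller in Capan-1 than in MIA PaCa-2 (difference of the changes 0.71, limma, adjusted p = 0.00791). The other probe, 2680750, was dim, at 5.90 and 6.03 in shCtrl against 5.56 and 5.46 in sh1319, and its change of -0.46 did not pass the threshold (limma, adjusted p = 0.0611). PTK2B, the related kinase PYK2, had changes of 0.12 and -0.16 at its probes, neither past the threshold.

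Compared to control, 4147 of the 17739 probes tested (23.4%) differed with sh1319 at an adjusted p under 0.05. Of these 2080 (11.7%) were higher and 2067 (11.7%) lower, and 433 changed by at least 1, 253 upward and 180 downward. Among probes detected in both arrays of shCtrl alone 146 were lower and 0 higher. Among those detected in both arrays of sh1319 alone 266 were higher and 0 lower, a direction that the filter favors. Fits without any 1 of the 4 arrays called 2389 to 2627 probes. The even split between rises and falls comes with quantile normalization. When arrays were instead scaled to the same median over all probes, the median change of all tested probes went from -0.00 to 0.18, and 2054 probes were called higher against 352 lower. Scaling to the median of the 11541 probes detected in all 12 arrays, an alternative added after the data were examined, gave a median of -0.05 with 1459 higher and 1996 lower. Where a list's counts move with median scaling they are given below under that scaling too. The genes named below have 257 tested probes, of which 218 passed the threshold and 39 did not. In 13 other fits, which change the background correction, the scaling, the detection filter, the arrays fitted or the block, none of the 218 changed sign and 81 missed the threshold at least once. Calls lost with other settings than median scaling are given below as the number of those 13 fits, with the highest adjusted p (limma).

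Of the 12 genes that rose most, 3 encode chemokines. TNFRSF11B, which encodes osteoprotegerin, a decoy receptor for RANKL and TRAIL, had the largest rise. It stood at 6.17 and 6.16 in shCtrl and at 9.83 in each sh1319 array, a change of 3.67 ± 0.10 (SE) or 12.7-fold (limma, adjusted p = 1.3e-08). UBD, a ubiquitin-like protein induced by inflammatory cytokines, went from 6.61 and 6.58 to 9.47 and 9.68 (change 2.98). PTGS2, the prostaglandin synthase COX-2, went from 6.77 and 6.70 to 9.49 in each sh1319 array (2.76). Of the chemokines that attract neutrophils through CXCR2, CXCL6 rose by 2.65, CXCL1 by 2.47 and CXCL8 by 2.21. NMUR2, a receptor for neuromedin U, rose by 3.12, and CD74, the invariant chain of MHC class II, by 2.42. CD74 was detected in 1 of the 2 shCtrl arrays, at 4.29 and 4.97 against 7.03 and 7.07 with sh1319. ADTRP rose by 2.41, the channel gene PANX2 by 2.33 and TRIM29, a gene of stratified epithelium, by 2.26. HOPX, a homeodomain-only cofactor, was not detected in either shCtrl array and was at least 4.15-fold higher with sh1319, at 6.63 and 6.67. In these 12 genes no sh1319 array overlapped a shCtrl array, but the genes were chosen by their change in these arrays, which favors such separation.

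IGFBP1, a secreted binding protein of insulin-like growth factors, had the largest fall with sh1319, from 8.64 and 8.70 to 6.16 and 6.44, a change of -2.37 ± 0.12 (SE) or 5.18-fold (limma, adjusted p = 1.6e-06). UGT1A1, which conjugates bilirubin, fell by 2.31, but this gene shares exons with the rest of the UGT1A locus and its probe may read others. AKR1B10, a reductase of aldehydes and retinal, went from 8.11 and 7.92 to 5.68 and 5.90 (-2.22). S100A2, a calcium-binding protein of squamous epithelium, changed by -2.22 and ACOX2, a peroxisomal oxidase of bile acid intermediates, by -2.11, and each was detected in only 1 of the 2 sh1319 arrays. The interferon-induced ubiquitin ligase HERC5 changed by -1.96 and hexokinase 2 (HK2), the first step of glycolysis, by -1.91. TMEM64 was not detected with sh1319 and was at least 3.15-fold lower. The SRC family kinase YES1, which acts beside FAK at adhesions, went from 8.95 and 9.10 to 7.27 and 7.26 (-1.76), and the ribosomal protein gene RPL29, which has processed copies in the genome, changed by -1.76. MED27, a Mediator subunit, changed by -1.88 on uneven replicates, 7.32 and 7.40 in shCtrl against 6.12 and 4.85 in sh1319, and did not pass without either shCtrl array or without the second sh1319 array (-1.25 to -1.92).

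**Figure D1:**
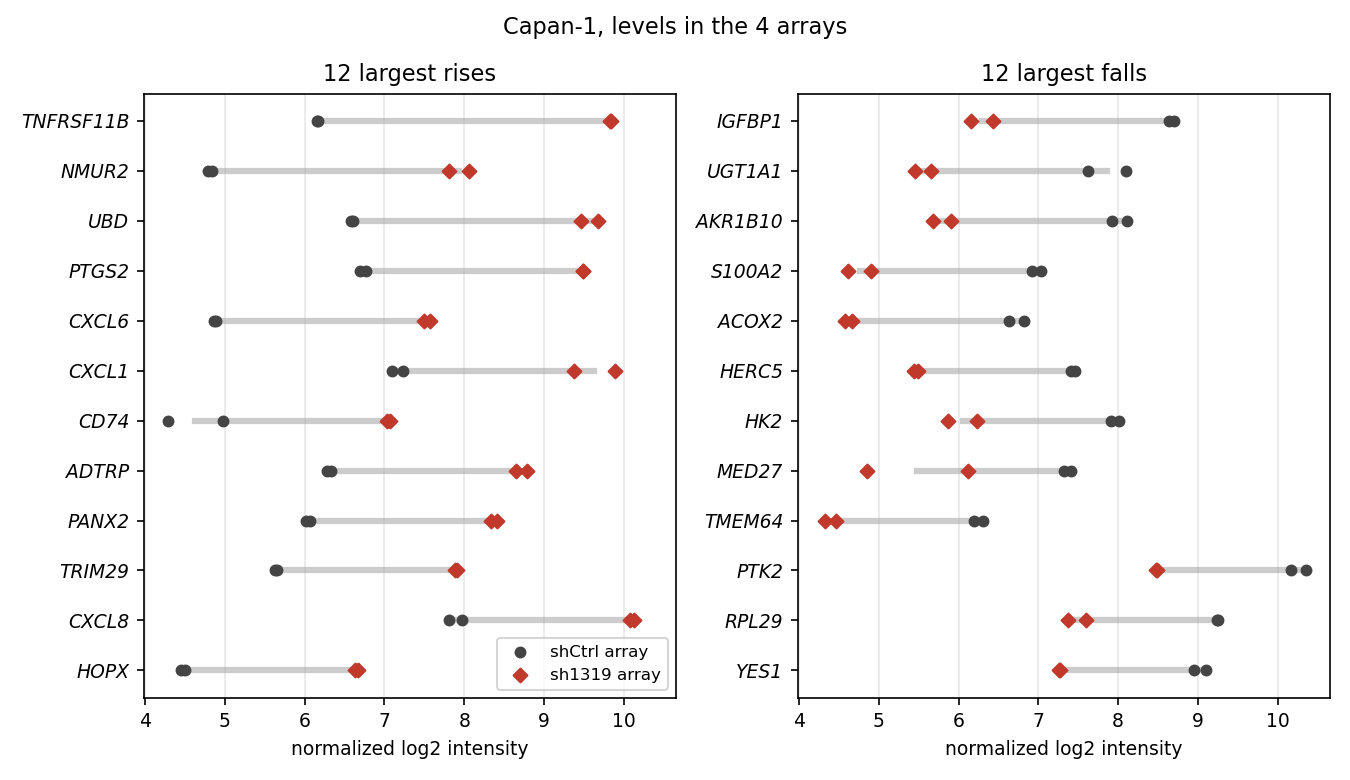
Normalized log2 intensity (horizontal axis) of the 12 genes with the largest rise and the 12 with the largest fall among probes past the threshold, in Capan-1. Circles are the 2 shCtrl arrays, diamonds the 2 sh1319 arrays, and the grey bar joins the group means. The groups do not overlap for any of these genes, which their choice by change in these arrays favors. The MED27 diamonds, at 6.12 and 4.85, lie furthest apart.

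Chemokines, cytokines and NF-kB targets made up the list with the highest share of rises. Of its 40 tested probes 27 rose (67.5%, against 11.7% of all probes), 2 fell and 11 did not pass, and the median change was 0.66 beside -0.00 for all probes tested. With median scaling 28 rose and the median was 0.88. Among ligands, CXCL1 went from 7.09 and 7.24 to 9.88 and 9.38, and CXCL8 from 7.97 and 7.81 to 10.07 and 10.13. CCL20, which attracts CCR6-bearing lymphocytes and dendritic cells, went from 7.01 and 6.25 to 8.68 and 8.60 (2.01). CXCL5 changed by 0.86 and 0.67 at its probes, CXCL2 by 0.75, CXCL10 by 0.72 and IL6 by 0.54. IL32, a proinflammatory cytokine, rose by 1.92 and its second probe was at least 2.48-fold higher. Of the pathway's own regulators, the NF-kB subunit RELB rose by 1.32, the inhibitor NFKBIA by 0.59, and BIRC3, an inhibitor of apoptosis that binds TNF receptor complexes, by 1.08 to 1.13 at its 3 probes. The feedback inhibitor TNFAIP3 was undetected in shCtrl and at least 1.95-fold higher. The acute phase protein SAA1 rose by 0.60 to 1.11. The falls were CCL28, a mucosal chemokine (-0.81), which did not pass with median scaling, and IL1B, which was undetected with sh1319 and at least 1.21-fold lower. The calls of IL1B (5 fits, adjusted p up to 0.147), IL6 (3, 0.092), the lower probe of SAA1 (4, 0.0891) and that of CXCL5 (2, 0.0542) were lost in some fits, for each of them without at least 1 sh1319 array.

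The chemokine rises were present with both FAK hairpins and were smaller with sh1319. CXCL1 changed by 2.47 with sh1319 and by 4.51 with sh1209, CXCL6 by 2.65 and 5.19, CXCL8 by 2.21 and 4.18, and CCL20 by 2.01 and 6.21. Since these pairs of values share the shCtrl arrays, the hairpins were compared directly. Over all probes 3296 (18.6%) differed between sh1319 and sh1209 in Capan-1. Of the chemokine and NF-kB list 30 probes did, 28 of them lower with sh1319 and 2 higher, and with median scaling 27 were lower and 0 higher. The difference was -2.04 for CXCL1 (limma, adjusted p = 0.000311) and -2.53 for CXCL6 (limma, adjusted p = 6.75e-07). For TNFRSF11B the order was the opposite, 3.67 with sh1319 and 1.87 with sh1209 (limma, adjusted p = 7.71e-07 for the difference).

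CXCL1 and CCL20 are shown with their promoters because both rose and the NF-kB motif is common in their list. Each line gives 250 bases before and 50 after the transcription start, from RefSeq on GRCh38.p14, with the NF-kB consensus in capitals, searched on both strands with overlapping matches joined.
CXCL1, chr4:73869143-73869442, plus strand: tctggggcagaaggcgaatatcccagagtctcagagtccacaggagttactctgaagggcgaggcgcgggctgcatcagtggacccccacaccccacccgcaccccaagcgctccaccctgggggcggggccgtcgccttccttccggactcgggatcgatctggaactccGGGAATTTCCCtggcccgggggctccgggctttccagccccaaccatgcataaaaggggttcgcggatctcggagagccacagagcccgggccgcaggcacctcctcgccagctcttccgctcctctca
CCL20, chr2:227813592-227813891, plus strand: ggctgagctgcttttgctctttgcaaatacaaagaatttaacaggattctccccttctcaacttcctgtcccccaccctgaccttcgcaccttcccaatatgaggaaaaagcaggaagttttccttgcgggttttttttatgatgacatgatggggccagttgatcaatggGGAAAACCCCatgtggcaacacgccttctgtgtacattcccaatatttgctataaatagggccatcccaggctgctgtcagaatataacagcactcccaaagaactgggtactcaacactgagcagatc
In both the motif began 79 bases before the start. It was held by 5.9% of all 35116 promoters from RefSeq, against 12 of the 15 list members that rose and have a promoter there (19 rose) and 14 of the 21 tested members that have one. A list that takes in NF-kB targets favors a high share. The share of all promoters counts promoters, whereas members were counted as genes with a match in any promoter. A match is a description of these letters and not evidence of binding.

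Some genes of antigen presentation were higher as well. Of 29 tested probes for MHC class I presentation 7 rose (24.1%) and none fell, with a median of 0.24 (0.39 with median scaling, 9 higher). TAPBP, the tapasin that loads peptide on class I molecules, rose from 7.54 and 7.51 to 8.85 and 9.32 (1.56), and the immunoproteasome subunit PSMB9 from 5.99 and 5.97 to 7.07 and 6.94 (1.03). HLA-B changed by 0.62, though probes of the HLA genes may read more than 1 locus, and it did not pass without shCtrl replicate 1 (adjusted p = 0.056). Members of MHC class II, chosen after their values were seen, were higher too. HLA-DRA went from 5.05 and 5.26 to 6.99 and 7.21 (1.95) and changed by 0.45 at its other probe, a call lost in 5 fits (adjusted p up to 0.183). HLA-DMB, part of the class II peptide exchange factor, went from 5.82 and 5.44 to 7.73 and 7.38 (1.93), and its partner HLA-DMA changed by 0.83. At its first probe HLA-DRA changed by 4.56 with sh1209 in Capan-1 and by -2.81 in MIA PaCa-2 cells carrying sh1319.

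Interferon-stimulated genes moved both ways. Of 58 tested probes 12 rose (20.7%) and 17 fell (29.3%), with a median of -0.01, and with median scaling 11 rose and 10 fell (median 0.22). HERC5, which attaches ISG15 to new proteins, went from 7.41 and 7.45 to 5.44 and 5.49. IFIT1, which binds foreign capped RNA, went from 9.17 and 9.07 to 7.86 and 8.12 (-1.13). The membrane protein IFITM1, which blocks virus entry, changed by -1.21, IFI44 by -1.09, OASL by -1.06 and -1.01 at its probes, OAS1 by -0.94, ISG15 itself by -0.90 and IFIT2 by -0.85. The rises were of other members. IRF7, the transcription factor that drives type I interferon genes, rose from 6.85 and 6.84 to 7.96 and 7.81 (1.04), IFI27 by 0.95, LGALS3BP by 0.93 and UBE2L6, the conjugating enzyme for ISG15, by 0.87.

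The direct comparison of the hairpins gave 29 of the 58 interferon-stimulated probes past the threshold, against 18.6% of all probes tested. All 29 were lower with sh1319 than with sh1209, as were the 16 called with median scaling. Against shCtrl the list median was 0.32 with sh1209 and -0.01 with sh1319. HERC5 changed by -0.21 with sh1209 (limma, adjusted p = 5.29e-05 for the difference between hairpins), IFIT1 by 0.14, and ISG15 by 0.73. HERC5, with the largest fall in this list, and IFIT1, chosen after its values were seen, are shown with their promoters. The consensus of the interferon-stimulated response element, which is common in the whole list, is in capitals, on either strand. The windows are the same RefSeq ones of GRCh38.p14.
IFIT1, chr10:89392373-89392672, plus strand: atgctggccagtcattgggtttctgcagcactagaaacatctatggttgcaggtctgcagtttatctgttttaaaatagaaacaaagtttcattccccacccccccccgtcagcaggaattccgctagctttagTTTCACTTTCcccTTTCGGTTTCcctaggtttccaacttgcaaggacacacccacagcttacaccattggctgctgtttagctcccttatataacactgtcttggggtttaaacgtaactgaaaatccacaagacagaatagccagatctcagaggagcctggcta
HERC5, chr4:88456869-88457168, plus strand: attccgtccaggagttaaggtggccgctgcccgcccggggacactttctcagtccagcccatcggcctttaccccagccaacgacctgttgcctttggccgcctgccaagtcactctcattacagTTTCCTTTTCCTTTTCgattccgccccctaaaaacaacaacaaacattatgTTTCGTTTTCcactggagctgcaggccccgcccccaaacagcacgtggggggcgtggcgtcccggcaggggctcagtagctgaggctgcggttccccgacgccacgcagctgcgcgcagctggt
The element was in 3.6% of all promoters and in 24 of the 34 tested list members that have a promoter there. It was in 8 of the 9 of these that fell and in 6 of the 8 that rose. Here too the choice of the list favors a high share, and members were counted as genes.

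**Figure D2:**
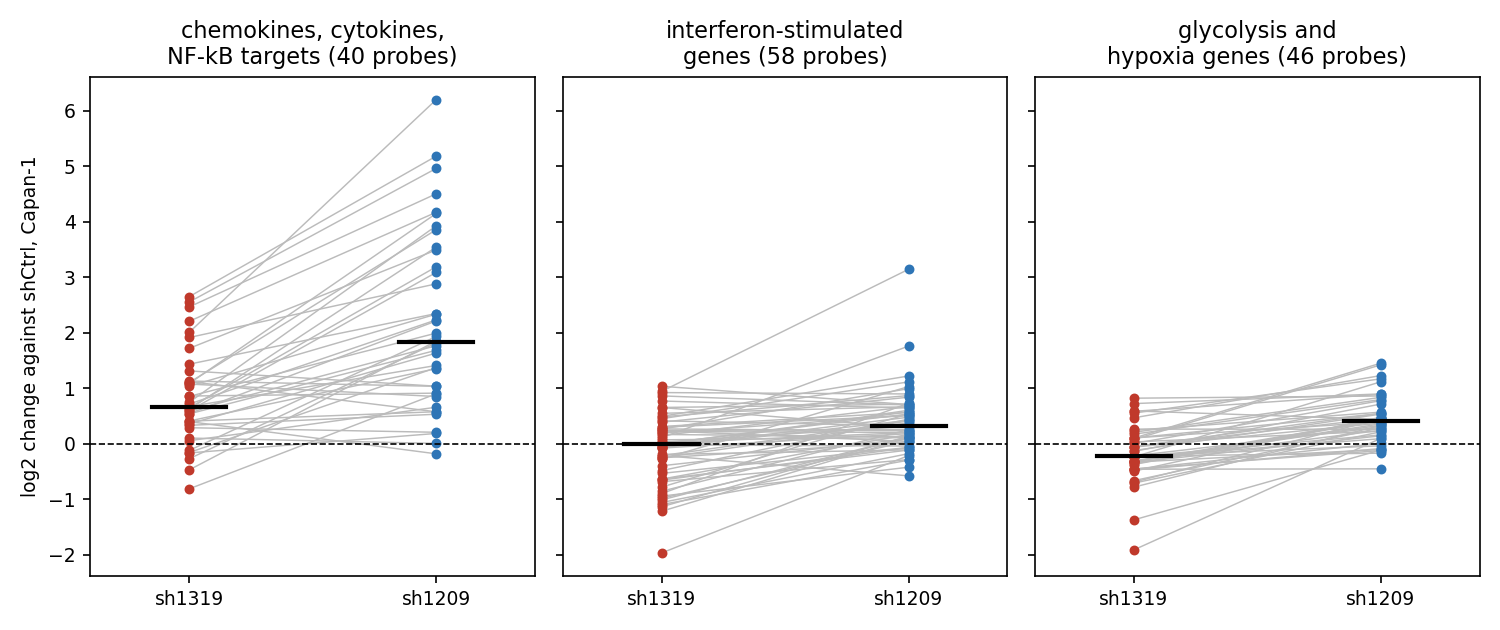
Log2 change against shCtrl in Capan-1 (vertical axis) of every tested probe of 3 gene lists with sh1319 and with sh1209, where a line joins the values of a probe and the black bars are the list medians. Both hairpins are compared with the same shCtrl arrays; chemokine and NF-kB medians are 0.66 with sh1319 and 1.84 with sh1209, and those of glycolysis and hypoxia genes -0.22 and 0.41.

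Glycolysis genes also set the hairpins apart. Of 46 tested probes for glycolysis and hypoxia genes 12 fell (26.1%) and 6 rose (13%), with a median of -0.22 (-0.04 with median scaling, 4 lower and 6 higher). HK2 had the largest change, from 8.01 and 7.91 to 6.24 and 5.87 at one probe and by -1.37 at the other. The platelet phosphofructokinase PFKP changed by -0.69, the mutase PGAM1 by -0.66 at one probe, and enolase 2 (ENO2) by -0.49. ENO2 did not pass in 10 fits (adjusted p up to 0.504) and PGAM1 in 4 (0.235), and PFKP did not pass with median scaling. Lactate dehydrogenase A (LDHA) changed by -0.78 at its dimmest probe, 5.68 and 5.74 against 4.90 and 4.97, and by 0.01 and -0.12 at its other probes, which did not pass. The rises were of hypoxia-inducible genes outside glycolysis, with VEGFA, the vascular growth factor, higher by 0.82 and 0.60, the vasodilator ADM by 0.73, BNIP3L by 0.59 at one of its probes and the collagen prolyl hydroxylase P4HA2 by 0.56 and 0.47. At each of these probes of VEGFA, BNIP3L and P4HA2 the call was lost when 1 shCtrl or 1 sh1319 array was left out (2 fits each, adjusted p up to 0.0944). The direct comparison of the hairpins called 32 of these 46 probes, against 3296 of all 17739 probes (18.6%), 1576 lower and 1720 higher. All 32 were lower with sh1319, as were the 15 called with median scaling. Against shCtrl the list median was 0.41 with sh1209 and -0.22 with sh1319, so the hairpins lay on either side of the control. HK2 changed by 0.10 with sh1209 (limma, adjusted p = 4.5e-06 for the difference between hairpins).

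Of FAK's partners at the adhesion, 8 of 33 tested probes for focal adhesion kinases and adaptors rose (24.2%) and 4 fell (12.1%), with a median of 0.17 (8 and 1 with median scaling, median 0.39). The scaffold NEDD9, a relative of p130Cas that FAK phosphorylates, rose at its 3 probes, from 6.24 and 6.60 to 7.92 and 8.05 at the brightest (1.57) and by 1.12 and 0.90 at the others. The adaptor CRK, which binds phosphorylated p130Cas and paxillin, rose by 0.48 to 0.72 at its 3 probes that passed. SRC went from 5.50 and 5.58 to 6.15 and 6.33 (0.70) and the paxillin relative TGFB1I1 rose by 0.64. Paxillin (PXN) changed by 0.32 and did not pass. With PTK2 the falls were GRB7 (-0.49), GIT2 (-0.49) and PAK1 (-0.47), whose calls were lost in 5, 3 and 9 fits (adjusted p up to 0.552, 0.231 and 0.64). SRC did not pass without shCtrl replicate 1 or sh1319 replicate 2 (adjusted p up to 0.0644), nor the probe of CRK at 0.48 in 3 fits (0.13). NEDD9 changed by 2.23 with sh1209 and by -0.01 with sh1319 in MIA PaCa-2.

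Of 15 integrin probes 2 rose (13.3%) and 2 fell (13.3%), shares near the 11.7% of all probes in each direction. The rises were both of ITGB2, the beta subunit of leukocyte integrins (0.69 and 0.60), and the falls were ITGA2, the alpha subunit of a collagen receptor (-0.65), and ITGB5 (-0.40). Neither fall passed with median scaling, and ITGA2 was lost in 7 fits (adjusted p up to 0.207), ITGB5 in 4 (0.549) and the second probe of ITGB2 in 2 (0.0686). ITGB1, the beta subunit of the collagen receptors, changed by -0.36, 0.02 and -0.27 at its probes, none past the threshold. Of 44 probes for actin linkers and tension proteins 8 rose (18.2%) and 10 fell (22.7%), with a median of 0.02 (8 and 1 with median scaling). The actin bundler FSCN1 went from 10.04 and 9.92 to 10.98 in each sh1319 array (1.00), and TNS3 rose by 0.82. PDLIM7 changed by -0.93.

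Matrix ligands of integrins had 8 rises and no fall among 17 tested probes (47.1% higher), with a median of 0.35 (0.54 with median scaling, 7 higher). LAMB2 rose by 0.78, LAMB3 by 0.55, LAMC1 by 0.45, LAMA5 by 0.43 and the basement membrane proteoglycan AGRN by 0.77. These calls were lost in 3 fits for LAMB2 (adjusted p up to 0.0999), 5 for LAMB3 (0.167), 8 for LAMC1 (0.195), 10 for LAMA5 (0.259) and 3 for AGRN (0.113), all of them without sh1319 replicate 2 among others. COL6A1, a chain of type VI collagen, went from 4.55 and 4.67 to 5.56 and 5.61 (0.97), against -0.02 with sh1209. Among 41 protease and inhibitor probes 7 rose (17.1%) and 8 fell (19.5%), or 8 and 1 with median scaling. Matrilysin (MMP7) rose at its probes by 0.98 and 0.97, and TIMP2 by 0.85. The kallikrein KLK11 changed by -1.15, which did not pass without sh1319 replicate 1 or shCtrl replicate 2 (adjusted p up to 0.0605), and the antitrypsin gene SERPINA1 by -0.88, a fall that did not pass with median scaling.

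**Figure D3:**
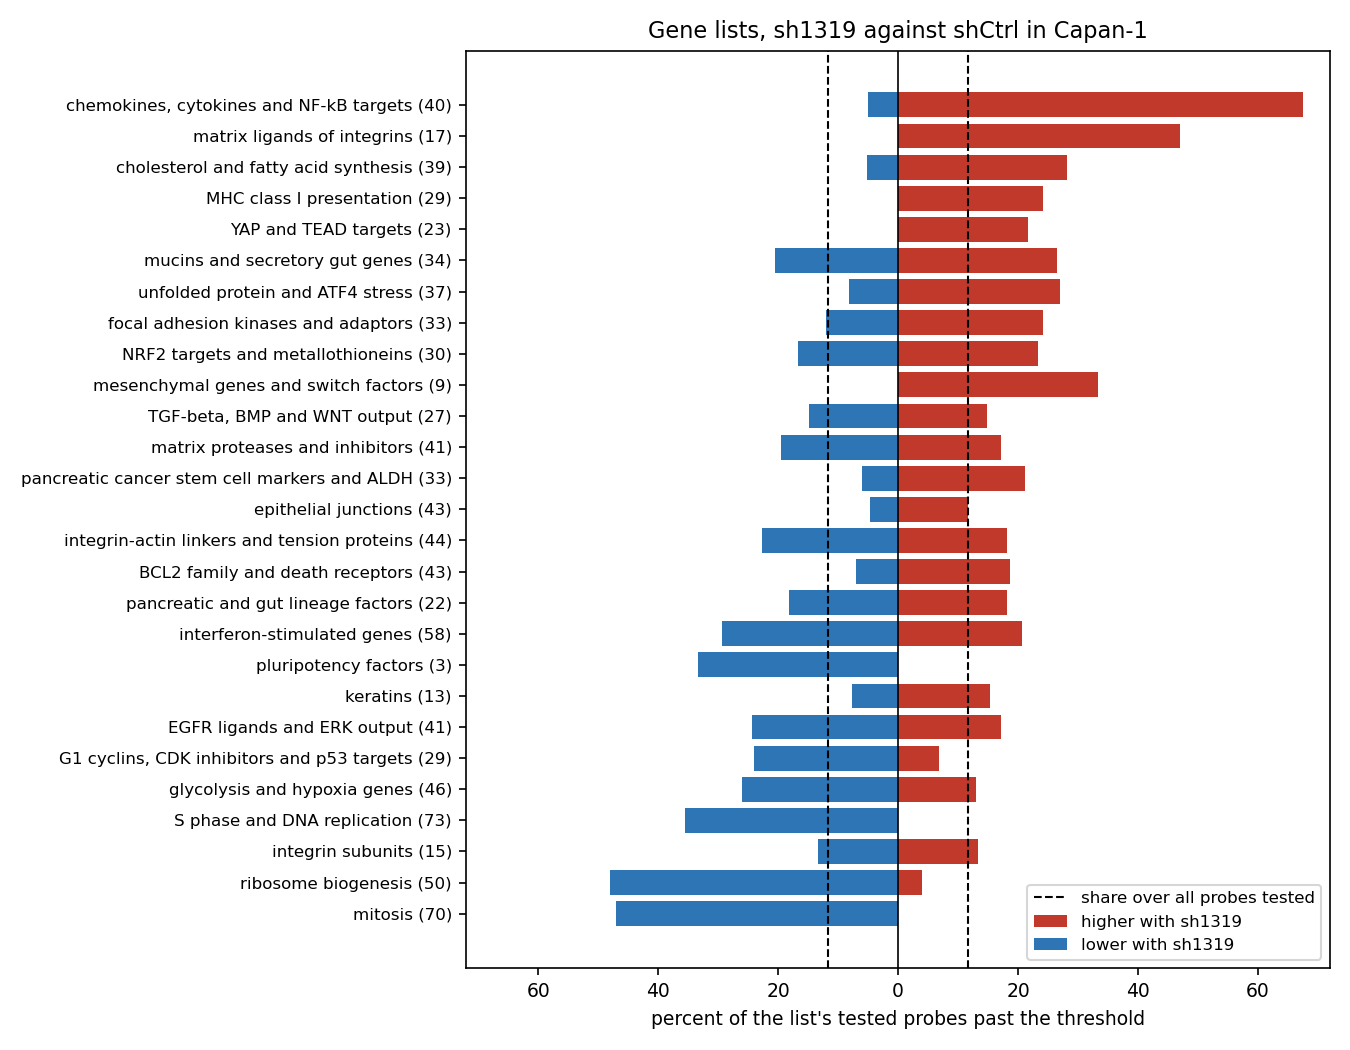
Percent of each list's tested probes (number in parentheses) that passed the threshold with sh1319 against shCtrl in Capan-1, higher to the right and lower to the left. Dashed lines mark the 11.7% of all probes tested in each direction; chemokines stand at 67.5% higher, and mitosis at 47.1% and ribosome biogenesis at 48% lower, of which 3 of 70 and 1 of 50 probes were called lower with median scaling.

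A few genes that mark the epithelial state changed. Of 43 probes for epithelial junctions 5 rose (11.6%) and 2 fell (4.65%), shares at or below the 11.7% of all probes in each direction. With median scaling 8 rose and 0 fell. CLDN1, a tight junction claudin, went from 10.54 and 10.38 to 11.78 and 11.89 (1.37), and MARVELD2, tricellulin, rose by 0.75. E-cadherin (CDH1) changed by -0.11 and did not pass. Of 9 probes for mesenchymal genes 3 rose (33.3%). N-cadherin (CDH2) went from 5.91 and 5.94 to 7.26 and 7.17 (1.29), ACTA2 rose by 0.55 and vimentin (VIM) by 0.47, both at low levels. VIM did not pass without any 1 of the 4 arrays, nor without background correction, where it changed by 0.21 (5 fits, adjusted p up to 0.118). Among 13 keratin probes KRT13, of stratified non-cornified epithelium, went from 7.99 and 7.81 to 9.23 and 9.22 (1.32), whereas it changed by -2.53 with sh1209. KRT7 changed by -0.54 and KRT10 by 0.35, and neither passed with median scaling. KRT10 was lost in 11 of the 13 fits, those without any 1 of the 4 arrays included (adjusted p up to 0.197).

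Mucins and secretory gut genes were divided, 9 of 34 probes higher (26.5%) and 7 lower (20.6%), or 7 and 4 with median scaling. Among the falls, lysozyme (LYZ) changed by -1.53 and -0.56 at its probes, the second of which was lost in 3 fits (adjusted p up to 0.202), ANXA10 fell from 12.39 and 12.35 (-1.37), the gastric mucin MUC5AC changed by -1.02 and the trefoil peptide TFF1 by -0.77, which did not pass with median scaling. The rises included the adhesion molecule CEACAM6, from 11.37 and 11.30 to 12.72 and 12.65 (1.35), PSCA, from 6.88 and 6.76 to 8.17 and 8.05 (1.28), the mucin MUC20 (1.06) and TFF3 (0.82). CEACAM6 and PSCA changed by 0.11 and 0.05 with sh1209 (limma, adjusted p = 1.48e-05 and 2.29e-05 for the difference between hairpins). Of 22 probes for lineage factors 4 rose (18.2%) and 4 fell (18.2%), or 6 and 1 with median scaling. NR5A2, a nuclear receptor of the exocrine pancreas, changed by -1.18 and -0.69 at its probes. TP63, a transcription factor of squamous epithelium, was undetected in shCtrl and at least 1.69-fold higher.

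CSC markers were examined because the study concerns clonogenic PDAC cells. Of 33 probes for pancreatic CSC markers and aldehyde dehydrogenases 7 rose (21.2%) and 2 fell (6.06%), with a median of 0.04 (0.29 with median scaling, 6 and 0). ALDH1A1, an enzyme of retinoic acid synthesis used to sort CSCs by its activity, rose at both probes, from 6.66 and 6.63 to 8.32 and 8.48 (1.76) and from 6.04 and 6.43 to 7.60 and 7.83 (1.48). It changed by 0.36 and 0.40 with sh1209, and by 2.67 and 2.44 with sh1319 in MIA PaCa-2. PROM1, which encodes CD133, rose by 0.70 and CD24 by 0.66 and 0.44, the latter lost in 5 fits (adjusted p up to 0.15). CD44 changed by -0.59 and -0.43 at the probes that passed and by 0.01 at its dimmest probe. Neither call held with median scaling, in a fit of the 4 arrays alone or without shCtrl replicate 1 or sh1319 replicate 1, and they were lost in 8 and 5 fits (adjusted p up to 0.424 and 0.37). EPCAM changed by -0.27 to -0.03 at its 3 probes, none past the threshold. Of 3 tested probes for pluripotency factors 1 fell, that of BMI1 (-0.46), which did not pass in 9 fits, with median scaling and without 3 of the 4 arrays in turn among them (adjusted p up to 0.477).

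Downstream of FAK, 7 of 41 probes for EGFR ligands and ERK output rose (17.1%) and 10 fell (24.4%), against 11.7% of all probes in each direction. The median was -0.12. With median scaling 7 rose and 3 fell, with a median of 0.09. The immediate early gene IER3 went from 11.57 and 11.48 to 10.19 and 10.24 (-1.31), and changed by 1.06 with sh1209 and -1.65 in MIA PaCa-2. The EGFR ligand EREG changed by -0.89 and the AP-1 subunit FOSL1 by -0.86. JUN went the other way, from 7.63 and 7.36 to 8.90 and 8.71 (1.31), with FOSB (0.88) and JUND (0.74). Of 23 probes for YAP and TEAD targets 5 rose (21.7%) and none fell, with a median of 0.24. With sh1319 in MIA PaCa-2 2 of these probes rose and 11 fell, with a median of -0.37. ANKRD1 went from 6.37 and 6.24 to 7.77 and 7.29 (1.23), and F3, tissue factor, rose by 1.07. Of 27 probes for TGF-beta, BMP and WNT output 4 rose (14.8%) and 4 fell (14.8%), shares near those of all probes, or 4 and 1 with median scaling. ID1, a BMP target, changed by -1.07 and -0.65, the WNT inhibitor DKK1 by -0.80, LEF1 by -0.64 and the WNT feedback gene AXIN2 by 0.94. DKK1 and LEF1 did not pass with median scaling, and the second probe of ID1 was lost in 3 fits (adjusted p up to 0.182).

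Genes of the cell cycle were lower by small amounts, and how many passed depends on the scaling. Of 70 tested mitosis probes 33 fell (47.1%, against 11.7% of all probes) and none rose, with a median of -0.39, and of 73 probes for S phase and DNA replication 26 fell (35.6%) and none rose, with a median of -0.24. With median scaling 3 and 1 fell. The list medians were then -0.14 and -0.04 beside 0.18 for all probes, so that they lay 0.33 and 0.22 below it, against 0.39 and 0.24 with quantile normalization. With scaling to the probes detected in all 12 arrays 32 and 22 fell. The kinetochore subunit SPC25 went from 7.81 and 7.85 to 7.06 and 6.60 (-1.0), and the mitotic kinase AURKA from 10.17 and 9.96 to 9.20 and 9.19 (-0.87), with -0.85 at its second probe. The centromeric histone CENPA changed by -0.94 and the transcription factor FOXM1, which drives mitotic genes, by -0.78. The clamp loader subunit RFC3 went from 8.37 and 8.25 to 7.28 and 7.25 (-1.05), the replication initiator MCM10 changed by -0.81 and the primase PRIM1 by -0.77. The CDK inhibitor CDKN2D and the p53 targets PMAIP1 and GADD45A changed by -0.75, -0.76 and -0.73, and cyclin D1 (CCND1) by 0.64. Their list of 29 probes had 2 rises (6.9%) and 7 falls (24.1%), or 1 and 0 with median scaling.

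Ribosome biogenesis genes followed the same pattern, with 24 of 50 probes lower (48%) and 2 higher, a median of -0.29 and, with median scaling, 1 lower and a median of -0.12. GNL3, the nucleolar GTPase nucleostemin, went from 8.97 in each shCtrl array to 8.05 and 8.07 (-0.91), and WDR12 changed by -0.86, NIP7 by -0.81, UTP4 by -0.79 and NOP16 by -0.77. MYC, which drives this program, changed by -0.33 and -0.12 at its probes, the first past the threshold but not in 9 fits (adjusted p up to 0.666).

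**Figure D4:**
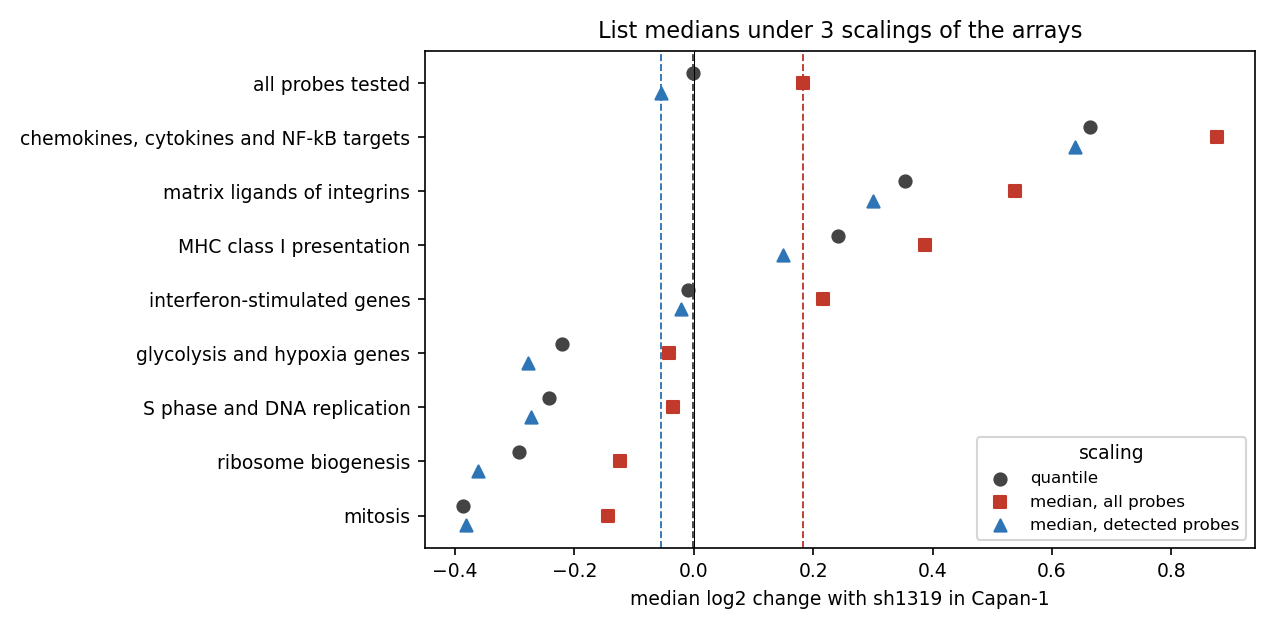
Median log2 change with sh1319 in Capan-1 (horizontal axis) of 8 gene lists and of all probes tested under 3 scalings of the arrays. Dashed lines are the medians of all probes, -0.00, 0.18 and -0.05; the mitosis, S phase and ribosome biogenesis medians lie below the line of their own scaling in each case and the chemokine median above it.

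Metabolic and stress lists held changes in both directions. Of 39 probes for cholesterol and fatty acid synthesis 11 rose (28.2%) and 2 fell (9 and 2 with median scaling), the falls both of the fatty acid elongase ELOVL6 (-1.11 and -0.87). Lanosterol synthase (LSS) rose by 0.78, the desaturase SCD by 0.62 and MSMO1 by 0.61, of which SCD and MSMO1 changed by -0.82 and -0.36 with sh1209. MSMO1 did not pass without shCtrl replicate 1 (adjusted p = 0.0551). Of 37 probes for unfolded protein and ATF4 stress 10 rose (27%) and 3 fell (9 and 0 with median scaling). HERPUD1, of endoplasmic reticulum degradation, rose by 1.11 and 0.80, and the serine synthesis enzyme PHGDH by 0.91, while the later enzyme of that route, PSPH, changed by -0.77, which did not pass with median scaling. Of 30 probes for NRF2 targets and metallothioneins 7 rose (23.3%) and 5 fell (16.7%), or 5 and 2 with median scaling. Beside AKR1B10 the falls were NQO1 (-0.87 and -0.56) and TXNRD1 (-0.56 and -0.48), and AKR1C2, which has close paralogs, rose by 1.06. The lower call of NQO1 was lost in 7 fits (adjusted p up to 0.177) and those of TXNRD1 in 4 and 6 (0.376 and 0.546). Of 43 probes for the BCL2 family and death receptors 8 rose (18.6%) and 3 fell (6.98%), or 5 and 1 with median scaling. The ligand TNFSF10 (TRAIL) was higher by 1.11, and the BH3-only gene HRK changed by -0.77, a call lost without shCtrl replicate 2 (-0.50). GDF15, a stress cytokine, changed by 0.01.

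In MIA PaCa-2, which shares no array with this comparison, the same hairpin changed part of the same probes. Of the 2067 probes lower in Capan-1, 853 were also called lower in MIA PaCa-2, which is 41.3% of the Capan-1 falls and 29.9% of the 2856 MIA PaCa-2 falls, and 172 were higher there. Of the 2080 higher in Capan-1, 768 were higher in MIA PaCa-2, 36.9% of the Capan-1 rises and 27.1% of the 2830 MIA PaCa-2 rises, and 143 were lower. As a background, 2856 of all 17739 probes tested were lower in MIA PaCa-2 and 2830 were higher. The response to sh1319 differed between the cell lines at 3666 of the 17739 (20.7%).

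There were 55 probes that passed with a change of -1 or below in both cell lines and 57 with 1 or above, and the genes named next were chosen from them after their values were seen. COA1, an assembly factor of the mitochondrial respiratory chain, went from 10.22 and 10.16 to 8.52 and 8.37 in Capan-1 (-1.75) and changed by -3.16 in MIA PaCa-2. YES1 changed by -1.76 and -2.15, the centriole protein POC1A by -1.60 and -2.94, and the Mediator subunit MED28 by -1.47 and -2.30. Among regulators of the cell cycle, SKP2, the ubiquitin ligase subunit that degrades p27, changed by -1.44 and -2.16 at its brightest probe and geminin (GMNN), an inhibitor of replication licensing, by -1.38 and -2.21. RRAS2, a RAS family GTPase, changed by -1.64 and -1.36, and the hexosamine enzyme GFPT1 by -1.24 and -1.86.

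The same genes were compared with sh1209 in Capan-1. COA1 changed by -0.42 with sh1209 (limma, adjusted p = 2.29e-05 for the difference between hairpins), YES1 by -0.21 (5.87e-06 in the same test), MED28 by -0.33 (6.47e-05) and GFPT1 by 0.27 (9.54e-05). At its brighter probe GFPT1 changed by -1.02 with sh1319 and by 0.38 with sh1209 (limma, adjusted p = 0.017 for sh1209 against shCtrl). The other four were lower than control with sh1209 as well, RRAS2 by -0.85 (0.00086 between hairpins), SKP2 by -0.86 (0.0133), POC1A by -0.69 (0.0034) and GMNN by -0.59 (0.000573), and each gene of this group was closer to the control than with sh1319. PTK2 also fell less with sh1209. Differences of hairpin sequence and of the extent of FAK loss cannot be told apart in these arrays. Not every fall shared by the cell lines was smaller with sh1209. RFC3, another of the shared falls, changed by -1.05 with sh1319 and by -1.25 with sh1209 (limma, adjusted p = 0.334 between hairpins). ACOX2 changed by -2.11 with sh1319, -1.90 with sh1209 and -1.75 in MIA PaCa-2 (limma, adjusted p = 0.385 between hairpins and 0.275 between cell lines).

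The 57 rises of 1 or above in both cell lines included no chemokine. ADTRP changed by 2.41 in Capan-1 and 4.48 in MIA PaCa-2, NCEH1, a cholesterol ester hydrolase, by 2.16 and 3.17, ALDH1A1 by 1.76 and 2.67, CLDN1 by 1.37 and 4.29, and TGFBR3, a coreceptor for TGF-beta, by 1.38 and 4.35. Of the chemokine and NF-kB list IL32, RELB and SAA1 were among the shared rises, with IL32 at 1.92 and 2.27. Of that list's 40 tested probes 17 were called higher in MIA PaCa-2 and 1 lower, with a median of 0.29. Over all 17739 probes tested 2830 were higher there and 2856 lower. CXCL1 rose there by 0.86 (limma, adjusted p = 0.0208), short of the cutoff of 1. In contrast CXCL8 changed by 2.21 in Capan-1 and by -0.49 in MIA PaCa-2 (limma, adjusted p = 3.81e-05 for the difference between cell lines). Of the 24 genes with the largest rise or fall, 20 differed between the cell lines in this test, against 20.7% of all probes tested. They were chosen by their change in Capan-1 arrays that the test also uses, which favors a high count. Of the 24, 10 were not detected in any of the 4 MIA PaCa-2 arrays compared, among them TNFRSF11B, PTGS2, CD74, HOPX, IGFBP1 and AKR1B10. S100A2 went in opposite directions, by -2.22 in Capan-1 and 1.50 in MIA PaCa-2.

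**Figure D5:**
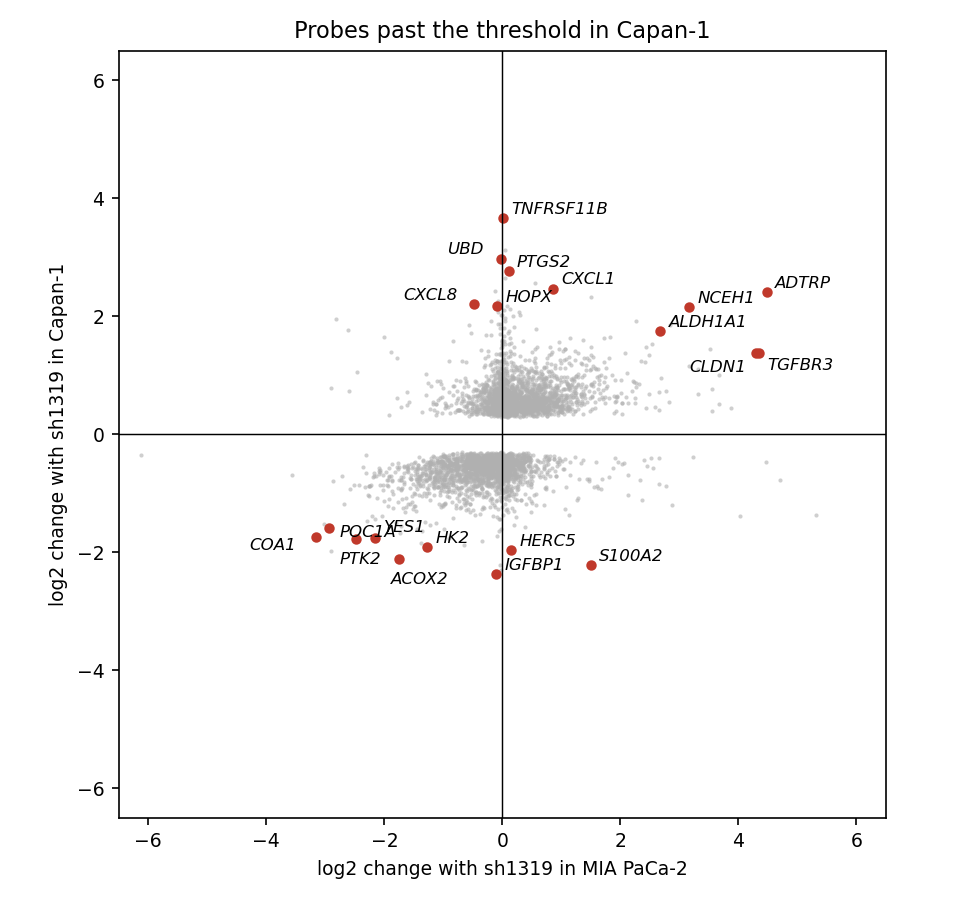
Log2 change with sh1319 against shCtrl in MIA PaCa-2 (horizontal axis) and in Capan-1 (vertical axis), for the 4147 probes past the threshold in Capan-1, with genes of the text marked. TNFRSF11B, UBD and PTGS2 lie near 0 on the horizontal axis, COA1, PTK2 and YES1 are low on both axes, and S100A2 is low in Capan-1 and higher in MIA PaCa-2.

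A few genes rose with sh1319 and were lower than control with sh1209, and were chosen after their values were seen. HPGD, which degrades prostaglandins, went from 6.90 and 6.81 to 8.87 and 9.04 (2.10) and changed by -0.63 with sh1209 (limma, adjusted p = 1.03e-07 for the difference between hairpins). MGP, the matrix Gla protein, went from 6.80 and 6.70 to 8.80 and 8.75 (2.03), against -0.86 with sh1209 (limma, adjusted p = 6.31e-08). HOPX changed by 0.16 with sh1209. In the other direction IGFBP1 changed by -0.32 with sh1209 (limma, adjusted p = 1.84e-06). Of the 24 genes with the largest rise or fall 18 differed between the hairpins, against 18.6% of all probes tested. Their choice by change in the sh1319 arrays, which this test uses, favors a high count. NMUR2, at 3.12 and 3.06, ADTRP, at 2.41 and 2.54, and TRIM29, at 2.26 and 2.51, did not pass that test (limma, adjusted p = 0.751, 0.403 and 0.12).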

How the data were processed

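RNA of Capan-1 and MIA PaCa-2 cells was hybridised to Illumina HumanHT-12 v4 arrays, 12 in all, with 2 for each of 6 groups taken from the labels. What the authors deposited is each probe's intensity, linear and not normalized, with a detection p-value. GenomeStudio 2011.1 is named in the submitters' processing notes. The table holds 47320 rows, of which 92 were spike-ins, and 28 empty columns.  Background was corrected with nec of limma 3.58.1 in R 4.3.3 (normexp from the detection p-values, offset 16), which moves dim probes toward each other, before quantile normalization of the log2 intensities. limma (lmFit, eBayes) fitted a mean for each of the 6 groups, which left 6 degrees of freedom, with Benjamini-Hochberg adjustment over the 17739 probes tested. The fit was tested on simulated data.

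Genes named are PTK2, the 12 largest rises and falls past the threshold with a current symbol, up to 4 members of each of the gene lists by size of change, genes named in the study and those said to be chosen after their values were seen. The members and lists were chosen with earlier results of these data known. Lists are described by counts and medians, without a test. Of the tested probes 14575 had a current RefSeq symbol. Where a probe was undetected in both arrays of a group, the fold is a bound against the lowest signal among detected probes of each array. In Capan-1 the differences between replicates 1 and 2 of shCtrl and of sh1319 correlated at -0.02 across probes after normalization. Pairing by replicate number was therefore not assumed, and it was not checked in the other groups.

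Alternatives were no background correction, median scaling, fits of the 4 or the 6 Capan-1 arrays alone, other detection filters, the replicate block, each of the 4 arrays left out, a minimum change of 1 and the plain test that the methods name. Median scaling over probes detected in all 12 arrays was added after the data were examined. A few genes that this rule names are not reported here.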

Additional observations from a re-analysis of the deposited data

Results flagged for a closer look

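The response to sh1319 differed between the cell lines (limma, interaction term) at 3666 probes. PTK2 was among them, its change in Capan-1 being 0.71 above that in MIA PaCa-2.

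Of the genes with the largest rises, the change in Capan-1 exceeded that in MIA PaCa-2 by 3.65 for TNFRSF11B, 3.07 for NMUR2, 3.0 for UBD, 2.65 for PTGS2, 2.61 for CXCL6, 1.60 for CXCL1, 2.54 for CD74, 0.83 for PANX2, 2.33 for TRIM29, 2.70 for CXCL8 and 2.27 for HOPX on the log2 scale. For ADTRP the difference was -2.07, as it rose more in MIA PaCa-2.

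Of the genes with the largest falls, the difference was -2.27 for IGFBP1, -2.28 for UGT1A1, -2.19 for AKR1B10, -3.71 for S100A2, -2.12 for HERC5, -0.63 for HK2 and -0.85 for RPL29. TNFRSF11B, NMUR2, UBD, PTGS2, CD74, TRIM29, HOPX, IGFBP1, UGT1A1 and AKR1B10 were not detected in the MIA PaCa-2 arrays compared, so that their difference is set by the Capan-1 arrays. With 2 arrays in each group, outlying arrays could not be tested for.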

How the results depend on the processing

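Median scaling moved most counts: 2406 probes passed in place of 4147 (352 lower in place of 2067), 1540 for the interaction with cell line in place of 3666 and 1185 between the hairpins in place of 3296. Median scaling over probes detected in all 12 arrays gave 3455, 2995 and 2568. Leaving out any 1 of the 4 arrays gave 2389 (without shCtrl replicate 1) to 2627 (without sh1319 replicate 1) probes, with 2398 without shCtrl replicate 2 and 2508 without sh1319 replicate 2, of which 1189 to 1326 were higher and 1179 to 1301 lower. Between the hairpins 1835 passed without sh1319 replicate 1, 2033 without sh1319 replicate 2 and 3014 without either shCtrl replicate. With a minimum change of 1, the counts were 433 (253 higher, 180 lower), 1170 for the interaction and 389 between the hairpins. The plain test that the methods name gave 3 probes after Benjamini-Hochberg adjustment (2 higher, 1 lower) and 4181 before it; PTK2, at -1.78, did not pass after adjustment (0.114). The replicate block gave 3888 probes and no pairing of the arrays was assumed. The other settings gave 3032 to 4671 probes, and over all settings the PTK2 change lay between -1.54 and -1.87. Of the 218 probes past the threshold for the genes named in the text, none changed direction in 13 other fits. Of the 39 that did not pass, 20 changed direction in at least 1 of these fits. Among them were CDH1 (-0.26 to 0.07), the EPCAM probe at -0.03 (-0.20 to 0.14) and both PTK2B probes (-0.01 to 0.23 and -0.31 to 0.05). Of the 23 genes with the largest changes beside PTK2, 23 passed with median scaling and 22 without sh1319 replicate 2. The causes were not tested. With 2 arrays in each group, small changes near the threshold are not settled, and signals near the detection limit are understated.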
